A study of Mus musculus with 2 samples.

Results

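The transporters of monocarboxylates and sugars were examined in colon epithelial cells of C57BL/6 mice, together with basigin, the chaperone that brings some of them to the cell surface. The 10 genes are set by a list of symbols, and the rule uses no measured value: Slc16a1, Slc16a3, Slc16a9, Slc5a8, Slc5a6, Slc5a1, Slc2a1, Slc2a2, Slc2a5 and Bsg, among 22350 symbols in all. Both libraries came from mice given 2.5% DSS (dextran sulfate sodium, which damages the epithelium of the colon) for 3 days. One library was from Pkm2-/- mice, which lack the M2 isoform of pyruvate kinase by their label, and one was from wild type mice. All mice had the same treatment, so no uninjured state is described. The labels used here give no number of animals per library, no age or sex, and no detail of how the Pkm2 allele was made or in which cells it is deleted. With 1 library per genotype there was no replicate check and no test, and every difference below describes these 2 libraries.

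Colonocytes take most of their fuel from butyrate, a short-chain fatty acid that gut bacteria make and that enters the cell through proton-coupled carriers of the SLC16 family and sodium-coupled carriers of the SLC5 family. The same SLC16 carriers move lactate and pyruvate across the plasma membrane. Pyruvate is the product of glycolysis, whose last step pyruvate kinase catalyses, and lactate is made from pyruvate. Hexoses enter by the sodium-coupled carrier encoded by Slc5a1 or by the facilitative carriers of the SLC2 family.

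Levels are FPKM, a fragment count corrected for transcript length and for the mapped total of the library, so they can be compared between genes within a library. The lowest values pointed to about 21800000 fragments in the Pkm2-/- library and 18900000 in the wild type library. A transcript of 2 kb at 1 FPKM then rested on about 43.6 fragments in the Pkm2-/- library and 37.8 in the wild type library. The 95% intervals given with a level or a fold are counting intervals on such implied fragments and cover counting error only, neither animals nor preparations. Pkm, the targeted gene, stood at 86.2 FPKM in the Pkm2-/- library, against 281 FPKM in the wild type library, a fold of 3.26 in favour of wild type with a counting interval of 3.15 to 3.37. This value sums the Pkm1 and Pkm2 isoforms. Epithelial markers were high in both libraries, with 9 markers summing to 6070 FPKM in the Pkm2-/- library and 5095 FPKM in the wild type library.

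Between the libraries the transporter genes differed by amounts that were common among all symbols tested. A smaller absolute log2 ratio was found for 11.7% of all symbols in the case of Slc16a3. The share was 83.1% for Slc2a1, 83.8% for Slc5a1 and 87.2% for Slc16a9. All 10 were listed in the Pkm2-/- file and 9 in the wild type file, and the same 9 had a mean of at least 1 FPKM. On the scale log2((Pkm2-/- FPKM + 1)/(wild type FPKM + 1)), which understates the difference of low genes, none of these 9 was at least 1.5-fold higher and none was at least 1.5-fold lower. Over the 12429 symbols that passed this filter on the mean, 4.46% stood at 1.5-fold higher or more, 5.29% at 1.5-fold lower or more and 9.75% past that fold in either direction, so a count of 0 among 9 genes lies near this background. Past 2-fold the shares of all symbols were 1.42% higher, 1.90% lower and 3.31% in either direction, and none of the 9 was there. The log2 ratios ran from -0.44 for Slc5a1 to 0.50 for Slc16a9. Their median was -0.15, with 4 above 0 and 5 below, while the median of all 12429 symbols was 0.06, with 58.8% of them above 0. Slc16a1, Slc16a3, Slc16a9 and Slc5a8 had ratios above 0, and Slc5a6, Bsg and the sugar carriers Slc5a1, Slc2a1 and Slc2a5 had ratios below 0. The counting intervals of Slc16a3, Slc5a6 and Slc2a5 included 1, and Slc16a3 changed sign when the libraries were scaled to equal medians or equal upper quartiles. Outside the list the families did not split this way by sign. Of 6 other measured SLC16 genes 5 were below 0, and of 5 other measured SLC2 genes 3 were above 0. The 2 other measured SLC5 genes lay on opposite sides of 0. Among the SLC2 genes above 0, the counting intervals of Slc2a9 and Slc2a10 included 1.

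**Figure D1:**
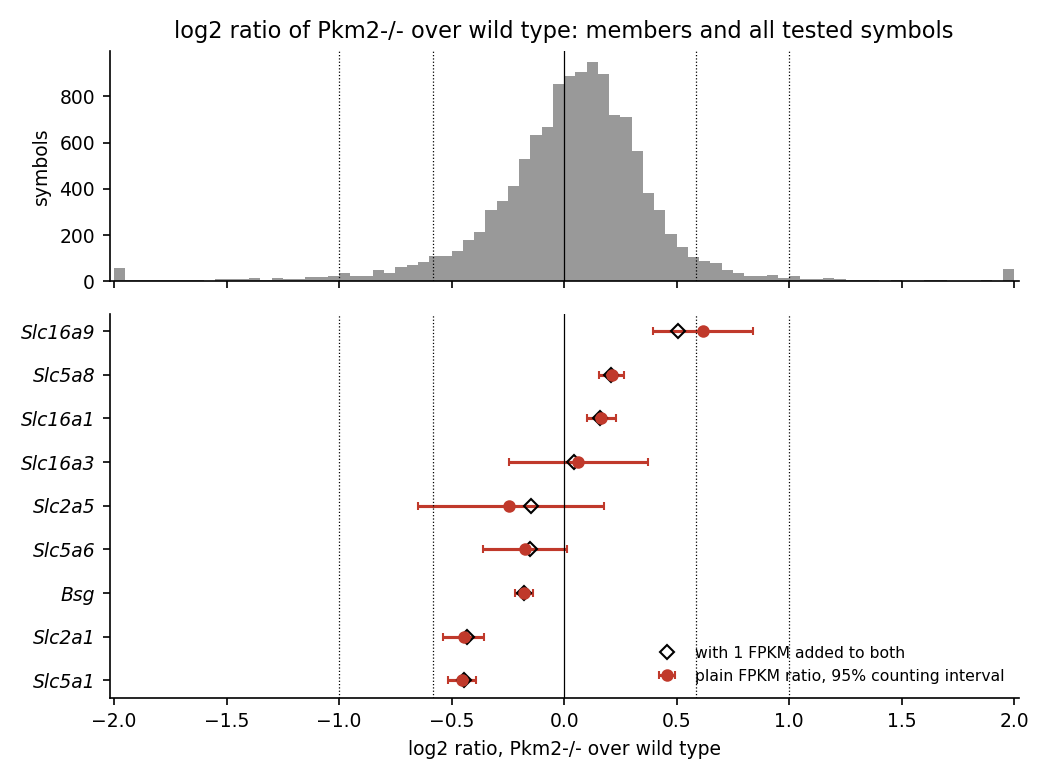
The lower panel shows the log2 ratio of Pkm2-/- over wild type for 9 genes, as the plain FPKM ratio with its 95% counting interval (filled circles) and with 1 FPKM added to both values (open diamonds). The upper panel counts all 12429 symbols by log2 ratio with 1 FPKM added, its end bars holding all values beyond the axis; dotted lines mark 1.5-fold and 2-fold, and every open diamond lies between the 1.5-fold lines.

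Promoter sequences are shown for Slc5a1 and Slc2a1, the sugar transporters with the lowest and nearly equal log2 ratios, and for the gene with the highest ratio, Slc16a9. They are RefSeq sequences of GRCm38.p6, from 250 bases before to 50 bases after the RefSeq start, on the strand of the gene: Slc5a1 at chr5:33103969-33104268, Slc2a1 at chr4:119108495-119108794 and Slc16a9 at chr10:70245026-70245325, all on the plus strand. Capitals mark matches on either strand to any of 4 motifs: the core bound by hypoxia-inducible factors (ACGTG), the E box (CACGTG), which contains that core on both strands, the GC box (GGGCGG) and the TATA box (TATAAA).
Slc5a1: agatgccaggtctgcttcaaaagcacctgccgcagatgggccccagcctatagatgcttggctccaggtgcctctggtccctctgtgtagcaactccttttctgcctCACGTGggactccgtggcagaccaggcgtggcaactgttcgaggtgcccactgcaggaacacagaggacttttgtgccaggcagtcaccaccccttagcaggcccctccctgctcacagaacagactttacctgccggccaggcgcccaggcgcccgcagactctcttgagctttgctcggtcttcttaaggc
Slc2a1: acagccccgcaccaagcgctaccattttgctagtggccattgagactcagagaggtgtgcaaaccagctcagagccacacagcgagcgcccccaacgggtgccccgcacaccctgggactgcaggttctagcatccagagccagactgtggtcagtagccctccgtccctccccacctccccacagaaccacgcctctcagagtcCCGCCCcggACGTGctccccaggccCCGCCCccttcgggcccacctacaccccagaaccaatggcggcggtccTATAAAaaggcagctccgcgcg
Slc16a9: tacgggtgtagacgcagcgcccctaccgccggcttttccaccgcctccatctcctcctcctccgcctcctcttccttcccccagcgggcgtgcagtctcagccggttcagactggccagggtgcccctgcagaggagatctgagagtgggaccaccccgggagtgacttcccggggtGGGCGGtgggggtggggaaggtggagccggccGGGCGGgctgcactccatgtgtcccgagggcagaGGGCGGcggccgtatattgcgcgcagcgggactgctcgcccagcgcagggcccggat
The Slc5a1 window held 1 E box, beginning at base -143 from the start, and with it the hypoxia core on both strands. The Slc2a1 window held the hypoxia core at base -36, on the gene's strand, with a GC box to each side on the other strand and a TATA box beginning at base 29 after the start. The Slc16a9 window held 3 GC boxes and none of the other 3 motifs. Among all 32851 windows of the same length, 19.6% held the hypoxia core, 7.15% the E box, 35.7% the GC box and 13.6% the TATA box. Windows were found for 9 of the 10 genes, without Bsg. The hypoxia core was in the windows of 4 of these genes, Slc16a1, Slc16a3, Slc2a1 and Slc5a1. The genes with the hypoxia core had ratios on both sides of 0. These matches describe letters in a window and not bound sites.

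Slc16a1 encodes MCT1, the main proton-coupled carrier of butyrate, lactate and pyruvate in colonocytes. The gene (ENSMUSG00000032902) lies on chromosome 3 from 104638668 to 104658462 on GRCm38. It stood at 46.4 FPKM in the Pkm2-/- library and 41.4 FPKM in the wild type library, from about 4481 implied fragments in the Pkm2-/- library and 3465 in the wild type library. The level was 1.12-fold higher in the Pkm2-/- library (95% counting interval 1.07 to 1.17). A smaller absolute log2 ratio was found for 41.7% of all symbols tested, so the difference was of a size that most symbols exceeded.

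Slc16a3 encodes MCT4, a carrier of lactate export in glycolytic cells and a known target of hypoxia-inducible factors. The gene (ENSMUSG00000025161) lies on chromosome 11 from 120948480 to 120960868. It was low in both libraries, at 2.07 FPKM in the Pkm2-/- library and 1.98 FPKM in the wild type library. The fold of 1.04 had a counting interval from 0.843 to 1.29, so no difference was detectable at this depth. Within a library, Slc16a1 was 22.5 times the level of Slc16a3 in the Pkm2-/- library and 20.9 times in the wild type library, a ratio chosen after the values were seen.

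Slc16a9 encodes MCT9, a less studied carrier that human genetic work links to carnitine. The gene (ENSMUSG00000037762) lies on chromosome 10 from 70245100 to 70285968. It stood at 5.68 FPKM in the Pkm2-/- library and 3.71 FPKM in the wild type library, 1.53-fold higher in the Pkm2-/- library (95% counting interval 1.31 to 1.79). This was the only one of the 9 genes past 1.5-fold by the plain ratio, and a smaller absolute log2 ratio was found for 87.2% of all symbols. Its exons overlap the antisense entry Gm7097, at 0.453 FPKM in the Pkm2-/- library and 0.0984 FPKM in the wild type library, and the pseudogene Gm9877 on the other strand, at 0.143 FPKM in the Pkm2-/- library and 0.0590 FPKM in the wild type library. Strand use in counting is not given in the sources used here, so reads of these entries and of Slc16a9 cannot be told apart.

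Bsg encodes basigin, the membrane glycoprotein that MCT1 and MCT4 need to reach the plasma membrane. The gene (ENSMUSG00000023175) lies on chromosome 10 from 79704491 to 79711969. It was the most abundant of the 10 genes, at 328 FPKM in the Pkm2-/- library and 371 FPKM in the wild type library. This placed it at percentile 98.5 of all symbols tested in the Pkm2-/- library and 98.8 in the wild type library. It was 1.13-fold lower in the Pkm2-/- library (95% counting interval 1.10 to 1.16). Set against the summed levels of Slc16a1, Slc16a3 and Slc16a7, Bsg was 6.59-fold higher in the Pkm2-/- library and 8.11-fold higher in the wild type library. Of the other chaperones of this kind, neuroplastin (Nptn) stood at 79.4 FPKM in the Pkm2-/- library and 66.3 FPKM in the wild type library, and embigin (Emb) at 1.71 FPKM in the Pkm2-/- library and 0.905 FPKM in the wild type library.

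Slc5a8 encodes SMCT1, the sodium-coupled carrier of butyrate and other monocarboxylates at the apical membrane of colonocytes. The gene (ENSMUSG00000020062) lies on chromosome 10 from 88885992 to 88929515. It stood at 52.5 FPKM in the Pkm2-/- library and 45.3 FPKM in the wild type library, 1.16-fold higher in the Pkm2-/- library (95% counting interval 1.11 to 1.20). Both main butyrate carriers were slightly higher in the Pkm2-/- library, and Slc16a1 was 0.885 times Slc5a8 in the Pkm2-/- library and 0.914 times in the wild type library. Ratios above 0 were found for 58.8% of all symbols tested. With the libraries scaled to equal medians, the log2 ratio fell from 0.16 to 0.08 for Slc16a1 and from 0.21 to 0.12 for Slc5a8.

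Slc5a6 encodes SMVT, the sodium-coupled carrier of biotin, pantothenate and lipoate. The gene (ENSMUSG00000006641) lies on chromosome 5 from 31036036 to 31048924. It stood at 6.51 FPKM in the Pkm2-/- library and 7.34 FPKM in the wild type library, 1.13-fold lower in the Pkm2-/- library with a counting interval from 0.992 to 1.28, which includes 1. Its first exons overlap Atraid on the other strand, a gene at 31.5 FPKM in the Pkm2-/- library and 33.6 FPKM in the wild type library, and reads of both cannot be told apart without strand.

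Slc5a1 encodes SGLT1, the sodium-coupled carrier of glucose and galactose of the intestinal brush border. The gene (ENSMUSG00000011034) lies on chromosome 5 from 33104219 to 33162870. It stood at 42.1 FPKM in the Pkm2-/- library and 57.6 FPKM in the wild type library, 1.37-fold lower in the Pkm2-/- library (95% counting interval 1.31 to 1.43). A smaller absolute log2 ratio was found for 83.8% of all symbols. In the Pkm2-/- library it was 0.801 times Slc5a8, and in the wild type library 1.27 times, so the order of these sodium-coupled carriers differed between the libraries. That ratio was chosen after the values were seen.

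Slc2a1 encodes GLUT1, the facilitative glucose carrier that hypoxia-inducible factors induce together with glycolytic enzymes. The gene (ENSMUSG00000028645) lies on chromosome 4 from 119108711 to 119137983. It stood at 25.2 FPKM in the Pkm2-/- library and 34.3 FPKM in the wild type library, 1.36-fold lower in the Pkm2-/- library (95% counting interval 1.28 to 1.45). Its exons overlap the antisense entry Gm12868, which is listed in neither library. Slc5a1 was 1.67 times the level of Slc2a1 in the Pkm2-/- library and 1.68 times in the wild type library, a ratio chosen after the values were seen. Txnip, which encodes an inhibitor of GLUT1, stood at 236 FPKM in the Pkm2-/- library and 302 FPKM in the wild type library. Arrdc4, from the same list of partners and regulators, went the other way, at 27.0 FPKM in the Pkm2-/- library and 22.8 FPKM in the wild type library. Both were picked after their values were seen.

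Slc2a5 encodes GLUT5, the fructose carrier. The gene (ENSMUSG00000028976) lies on chromosome 4 from 150119283 to 150144169. It was low in both libraries, at 1.43 FPKM in the Pkm2-/- library and 1.70 FPKM in the wild type library, and the fold of 1.18 lower had a counting interval from 0.883 to 1.57, which includes 1. Slc2a1 was 17.5 times the level of Slc2a5 in the Pkm2-/- library and 20.2 times in the wild type library. Slc2a2 (ENSMUSG00000027690, chromosome 3, 28697903 to 28731359) encodes GLUT2, the basolateral glucose carrier of the small intestine, liver and beta cell. It was listed at 0.0113 FPKM in the Pkm2-/- library, the worth of about 1 fragment, and was not listed in the wild type library, where 3 fragments would be 0.0285 FPKM. No fold is given for it.

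**Figure D2:**
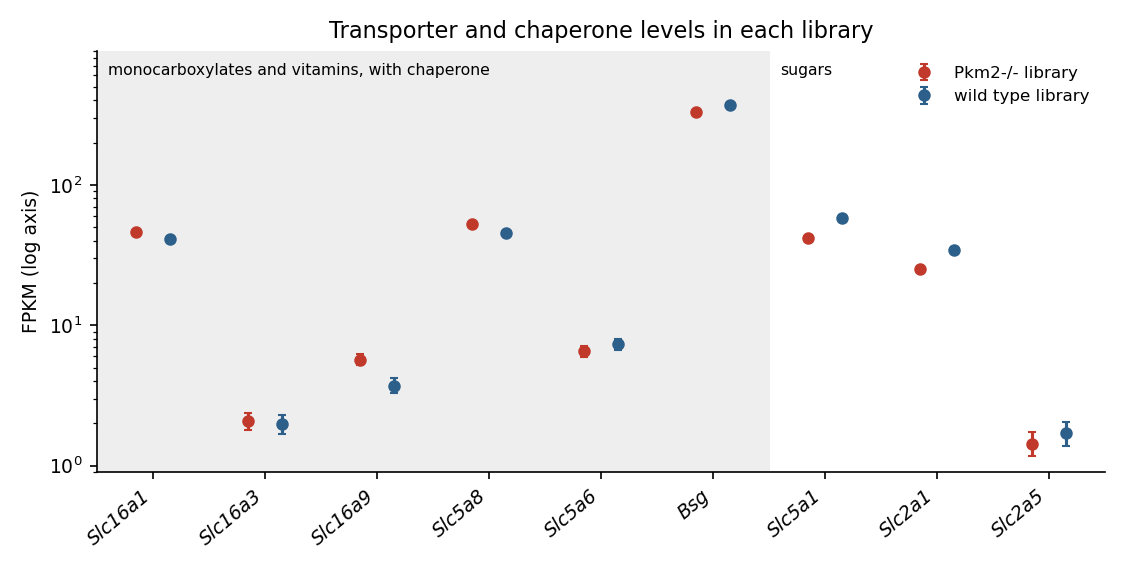
FPKM of 9 of the 10 genes on a log axis, with the Pkm2-/- library in red and the wild type library in blue; bars are 95% counting intervals of the level and many are smaller than the point. Slc2a2, listed at 0.0113 FPKM in the Pkm2-/- library and absent from the wild type list, is not drawn. The shaded side holds the monocarboxylate and vitamin carriers with Bsg, at 328 FPKM in the Pkm2-/- library and 371 FPKM in the wild type library, and the open side holds the sugar carriers.

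The order of the levels differed in the middle. In the Pkm2-/- library Bsg was followed by Slc5a8, Slc16a1, Slc5a1 and Slc2a1, and in the wild type library by Slc5a1, Slc5a8, Slc16a1 and Slc2a1. The counting intervals of these neighbours did not overlap in the Pkm2-/- library, where Slc5a8 ran from 51.2 to 53.8 FPKM, Slc16a1 from 45.1 to 47.8 FPKM and Slc5a1 from 40.7 to 43.4 FPKM. They did not overlap in the wild type library either, where Slc5a1 ran from 55.9 to 59.3 FPKM, Slc5a8 from 44.0 to 46.7 FPKM and Slc16a1 from 40.1 to 42.8 FPKM. Slc5a6 and Slc16a9 came next in both, with overlapping intervals in the Pkm2-/- library (5.95 to 7.12 FPKM and 5.17 to 6.22 FPKM) and separate ones in the wild type library. Slc16a3 and Slc2a5 were lowest among the 9, with overlapping intervals in the wild type library (1.68 to 2.31 FPKM and 1.38 to 2.06 FPKM). Across genes these intervals leave out any error of the transcript lengths that FPKM divides by.

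Within each family, the genes above held different shares of the family's summed FPKM. The 14 SLC16 genes summed to 103 FPKM in the Pkm2-/- library and 106 FPKM in the wild type library, of which Slc16a1, Slc16a3 and Slc16a9 held 52.7% in the Pkm2-/- library and 44.2% in the wild type library. Slc16a5, which encodes MCT6, a carrier known for moving drugs such as bumetanide, was next to Slc16a1 at 33.4 FPKM in the Pkm2-/- library and 39.2 FPKM in the wild type library. Of the 6 other SLC16 genes that passed the filter, 1 had a ratio above 0 and 5 below, with a median log2 ratio of -0.22. With 1 FPKM added, only Slc16a11, linked to diabetes risk in human studies, was at least 1.5-fold lower, at 1.46 FPKM in the Pkm2-/- library and 3.37 FPKM in the wild type library. Slc16a7, which encodes MCT2, a carrier with high affinity for pyruvate, stood just inside that fold on the same scale, at 1.28 FPKM in the Pkm2-/- library and 2.37 FPKM in the wild type library.

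The 13 SLC5 genes summed to 121 FPKM in the Pkm2-/- library and 133 FPKM in the wild type library. Slc5a8, Slc5a6 and Slc5a1 held 83.2% of this sum in the Pkm2-/- library and 82.96% in the wild type library. The other SLC5 genes that passed the filter, 2 in number, were past 2-fold in opposite directions. Slc5a9, which encodes SGLT4, a carrier of mannose and related sugars, stood at 6.50 FPKM in the Pkm2-/- library and 16.7 FPKM in the wild type library, 2.56-fold lower (95% counting interval 2.33 to 2.82). Slc5a3, which encodes SMIT1, the myo-inositol carrier that cells raise under osmotic stress, stood at 13.6 FPKM in the Pkm2-/- library and 5.53 FPKM in the wild type library, 2.46-fold higher (95% counting interval 2.30 to 2.63). Slc5a12, the low-affinity relative of Slc5a8, was listed in neither library.

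The 12 SLC2 genes summed to 54.1 FPKM in the Pkm2-/- library and 63.5 FPKM in the wild type library. Slc2a1 alone held 46.5% of this sum in the Pkm2-/- library and 54.0% in the wild type library. Of the 5 other SLC2 genes that passed the filter, none was past 1.5-fold, and their median log2 ratio was 0.03. The next by the mean of both libraries were Slc2a10, at 8.23 FPKM in the Pkm2-/- library and 8.05 FPKM in the wild type library, and Slc2a13, which encodes a proton-coupled myo-inositol carrier, at 6.76 FPKM in the Pkm2-/- library and 5.31 FPKM in the wild type library. Slc2a3, the glucose carrier of neurons and many leukocytes, was at 0.434 FPKM in the Pkm2-/- library and 0.143 FPKM in the wild type library.

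**Figure D3:**
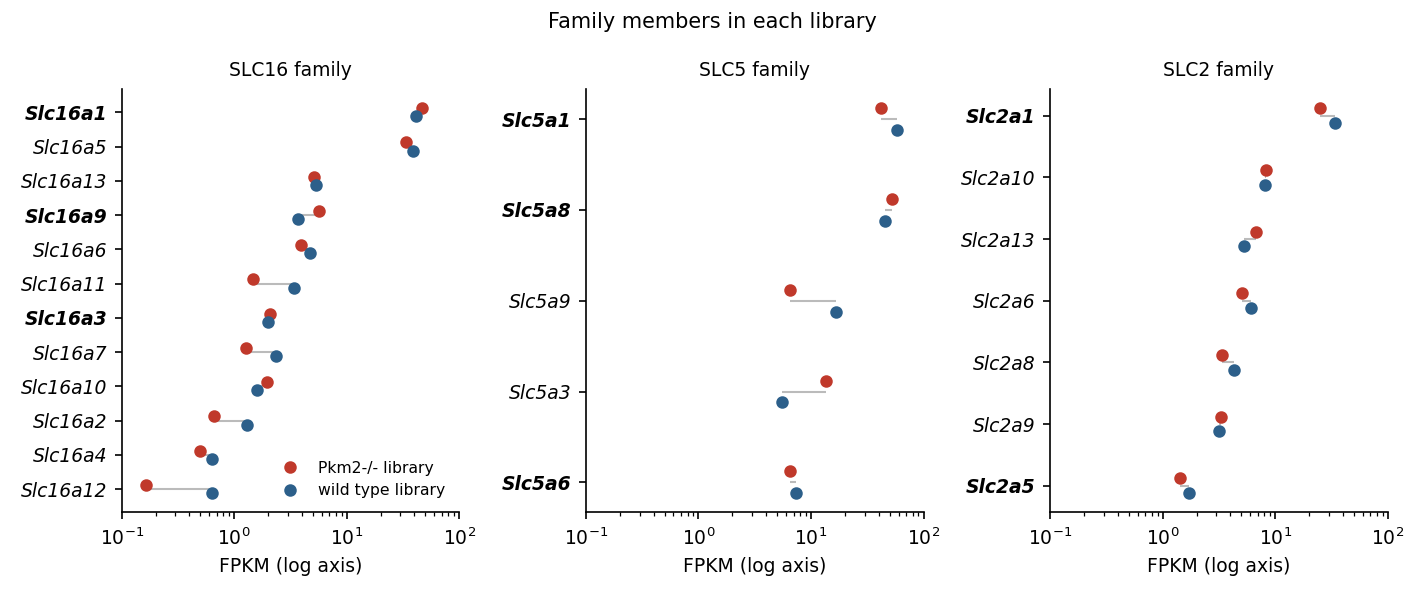
FPKM on a log axis of the SLC16, SLC5 and SLC2 genes with at least 0.5 FPKM in a library, the Pkm2-/- library in red above the wild type library in blue, joined by a grey line; the genes in bold belong to the 10 described here. Slc5a3 lies to the right in the Pkm2-/- library, at 13.6 FPKM against 5.53 FPKM in the wild type library, and Slc5a9 to the left, at 6.50 FPKM against 16.7 FPKM in the wild type library.

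The genes that use what these carriers bring in were compared by lists. Of 14 measured genes of butyrate and short-chain fatty acid use, 3 had ratios above 0 and 11 below, with a median of -0.07 and none at least 1.5-fold higher. The 2 genes at least 1.5-fold lower encode transport proteins. Slc26a3, the chloride and bicarbonate exchanger, stood at 53.4 FPKM in the Pkm2-/- library and 105 FPKM in the wild type library. The efflux pump Abcg2 stood at 14.2 FPKM in the Pkm2-/- library and 23.3 FPKM in the wild type library. The enzyme gene Acsm3 lay just inside that fold, at 28.8 FPKM in the Pkm2-/- library and 42.3 FPKM in the wild type library. It was 1.47-fold lower by the plain ratio, with a counting interval of 1.39 to 1.56. The enzyme genes Acads and Oxct1 went the other way, with log2 ratios of 0.19 for Acads and 0.30 for Oxct1. Of 16 lactate and pyruvate genes, 6 had ratios above 0 and 10 below, with a median of -0.21. Lactate dehydrogenase A (Ldha) led in level, at 421 FPKM in the Pkm2-/- library and 484 FPKM in the wild type library. The mitochondrial pyruvate carrier subunit genes were Mpc1, at 83.1 FPKM in the Pkm2-/- library and 98.4 FPKM in the wild type library, and Mpc2, at 38.7 FPKM in the Pkm2-/- library and 35.8 FPKM in the wild type library. Gpt, an alanine aminotransferase that makes pyruvate, was at 21.9 FPKM in the Pkm2-/- library and 38.9 FPKM in the wild type library, and Pdk4, a kinase that shuts off pyruvate dehydrogenase, at 2.03 FPKM in the Pkm2-/- library and 6.29 FPKM in the wild type library; both were at least 1.5-fold lower.

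Of 16 genes for the first steps of hexose and fructose use, 4 had ratios above 0 and 12 below, with a median of -0.23. The most abundant, Gpi1, the isomerase of glucose 6-phosphate, was at 210 FPKM in the Pkm2-/- library and 229 FPKM in the wild type library. With 1 FPKM added, Hkdc1, a hexokinase-like gene, was the only one past 1.5-fold, at 12.7 FPKM in the Pkm2-/- library and 27.5 FPKM in the wild type library. The main hexokinase genes were close, with Hk2 at 41.3 FPKM in the Pkm2-/- library and 41.6 FPKM in the wild type library and Hk1 at 39.5 FPKM in the Pkm2-/- library and 36.3 FPKM in the wild type library. The fructokinase gene Khk stood at 6.90 FPKM in the Pkm2-/- library and 10.7 FPKM in the wild type library, 1.56-fold lower by the plain ratio and within 1.5-fold with 1 FPKM added. Of 11 genes that use biotin or pantothenate, the cargo of Slc5a6, 4 had ratios above 0 and 7 below, with a median of -0.03, and 1, the pantothenate kinase gene Pank1, was at least 1.5-fold higher, at 10.3 FPKM in the Pkm2-/- library and 6.29 FPKM in the wild type library. Pccb, a subunit of a biotin-dependent carboxylase, had the highest mean of both libraries, at 47.8 FPKM in the Pkm2-/- library and 53.5 FPKM in the wild type library.

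Among 12 measured partners and regulators of the carriers, 9 had ratios above 0 and 3 below, with a median of 0.15. Slc9a3, which encodes the sodium and proton exchanger of the apical membrane, was 4.95-fold lower, at 11.9 FPKM in the Pkm2-/- library and 59.1 FPKM in the wild type library. Cd44, a hyaluronan receptor reported to bind monocarboxylate carriers, was 1.57-fold higher, at 41.3 FPKM in the Pkm2-/- library and 26.2 FPKM in the wild type library. Hnf4a, a transcription factor of the gut epithelium, stood at 190.3 FPKM in the Pkm2-/- library and 168 FPKM in the wild type library.

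**Figure D4:**
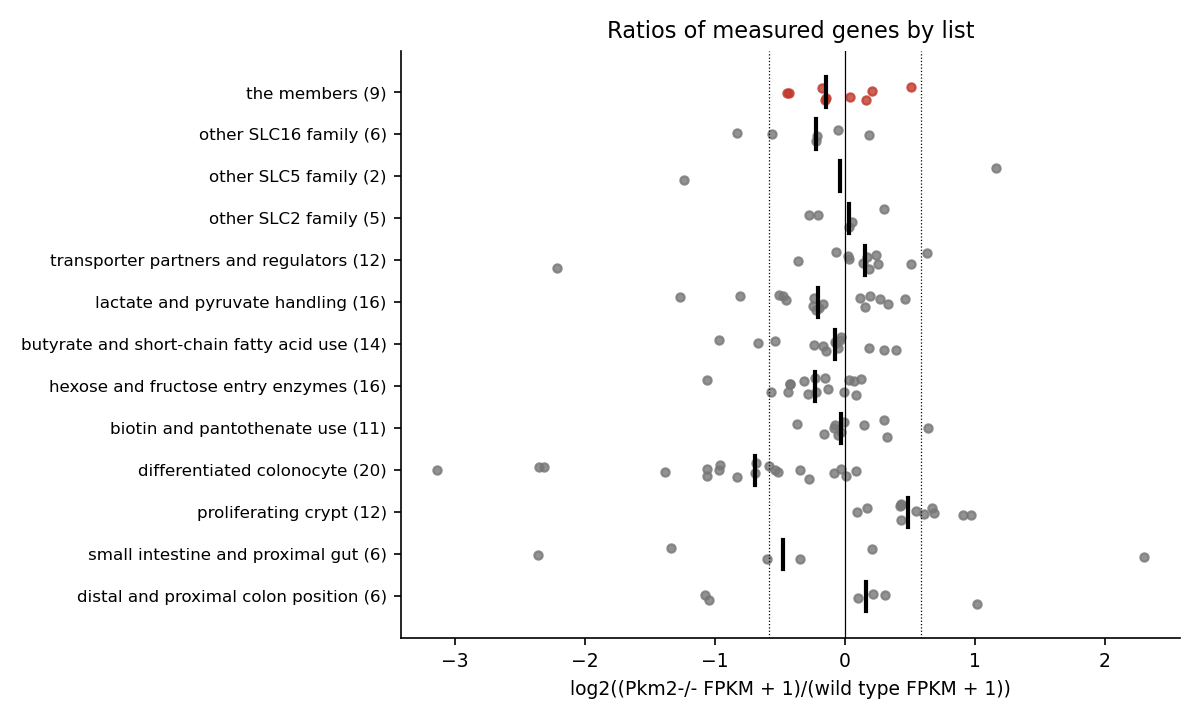
Each point is a gene averaging 1 FPKM or more over both libraries, placed by log2((Pkm2-/- FPKM + 1)/(wild type FPKM + 1)); black bars are list medians, the number of genes stands in brackets, and dotted lines mark 1.5-fold. The 9 transporter and chaperone genes lie between -0.44 and 0.50, while the colonocyte list has its median at -0.69 and the crypt list at 0.49.

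Marker genes of several cell types also differed between the libraries. In bulk RNA fewer cells of a type and less RNA per cell cannot be told apart. Of 20 genes of differentiated colonocytes, the cells that carry Slc16a1, Slc5a8 and Slc9a3, 18 had ratios below 0 and 11 were at least 1.5-fold lower, with a median of -0.69. Car4, a carbonic anhydrase, was at 52.98 FPKM in the Pkm2-/- library and 275 FPKM in the wild type library. All 12 genes of the proliferating crypt had ratios above 0, with a median of 0.49. Red-cell markers moved beside Slc2a1 and Bsg, which red-cell precursors also use: all 5 listed of 7 were lower, their sum was 1.91 FPKM in the Pkm2-/- library and 24.5 FPKM in the wild type library, and Slc4a1 was listed in neither. T cell markers went the other way, with all 11 higher and a sum of 109 FPKM in the Pkm2-/- library and 28.8 FPKM in the wild type library. Macrophage and dendritic cell markers were higher in 9 of 10, summing to 26.8 FPKM in the Pkm2-/- library and 11.2 FPKM in the wild type library. Neutrophil markers summed to 13.2 FPKM in the Pkm2-/- library and 25.5 FPKM in the wild type library, nearly all of it from Ly6g, at 13.1 FPKM in the Pkm2-/- library and 25.4 FPKM in the wild type library, while S100a8, S100a9, Mpo and Elane were listed in neither. Fibroblast, endothelial and smooth muscle markers summed to at most 4.34 FPKM in any library. Genes that mark position along the gut also differed: Hoxb13 was at 10.7 FPKM in the Pkm2-/- library and 23.8 FPKM in the wild type library, and Hoxa9 at 19.9 FPKM in the Pkm2-/- library and 9.30 FPKM in the wild type library. The bile acid binding protein gene Fabp6 of the ileum was at 41.6 FPKM in the Pkm2-/- library and 7.64 FPKM in the wild type library, and the ileal bile acid carrier gene Slc10a2 at 9.56 FPKM in the Pkm2-/- library and 53.2 FPKM in the wild type library. The part of cell make-up and of gut position in the differences of the transporter genes was not tested.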

How the data were processed

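Messenger RNA of colon epithelial cells was sequenced from 1 Pkm2-/- and 1 wild type library. The deposited values were taken as FPKM. The files have no header, so the unit rests on the submitters' processing notes, which name the build mm8 and Cufflinks 2.2.1, Cuffdiff (1.3.0, 2.2.1), TopHat2 2.1.1 and Bowtie2 2.2.9, and on the values. Of 22384 gene IDs, 99.4% were in GENCODE M21 and 99.96% of these overlapped their gene on GRCm38, so gene positions are those of GENCODE M21. Only values above 0 are listed; an unlisted gene was set to 0 for the log2 ratio, and rows sharing a symbol were summed. FPKM divides by length and library total, so abundant transcripts can shift all values.

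Genes were counted at 1.5-fold and 2-fold with a pseudocount of 1 FPKM, where the mean was at least 1 FPKM; folds printed with genes are plain ratios. Depth was read from the lowest values in genes with 1 transcript over 1.5 kb. Counting intervals (95%) are Clopper-Pearson for folds and exact Poisson for levels, on fragments implied by the longest annotated transcript. The method was tested on simulated data, drawn with counting error only and with the same transcript lengths. That test therefore does not cover errors of length or differences between animals. Members and lists were chosen with earlier results of these data known. The rule for named genes took all 10 and, of each other list, the most abundant gene by its mean and up to 6 past 1.5-fold; of the colonocyte, crypt and gut position lists only examples are named, and not every gene the rule took is reported here. Others, such as hexokinases, pyruvate carriers and chaperones, were picked after their values were seen. Python 3.11.15, numpy 2.4.6, pandas 2.3.3, scipy 1.17.1 and matplotlib 3.10.9 were used. Other pseudocounts, filters and scalings were tried.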

Additional observations from a re-analysis of the deposited data

How the results depend on the processing

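With 1 library per genotype nothing could be left out, and the counting intervals give the only error. No paired analysis was possible because each genotype has 1 library and no result comes from a test. Scaling to equal medians, equal upper quartiles or an equal nuclear sum multiplied the Pkm2-/- FPKM by a factor relative to wild type. The log2 of this factor was -0.08, -0.07 and 0.05, in that order. With a pseudocount added, low genes moved by other amounts. For the equal nuclear sum both libraries were rescaled to a common total, so the 1 added there stood for less than 1 FPKM. Slc16a9 was at 0.60 and Slc2a5 at -0.15 in that setting, which mixes the scaling with a smaller pseudocount. Under the 7 alternatives, no transporter gene was past 2-fold and none was at least 1.5-fold lower. The number at least 1.5-fold higher was 1 with a pseudocount of 0.1 and 1 with an equal nuclear sum, Slc16a9 each time. Whether the scaling or the smaller pseudocount put Slc16a9 past 1.5-fold with the equal nuclear sum was not tested. Only Slc16a3 changed sign, to at lowest -0.01, with equal medians and equal upper quartiles. The median of the transporter genes was -0.066 with no filter on low genes and -0.058 with 5 FPKM added, and with a mean of at least 5 FPKM 2 of them had ratios above 0. Pkm was at -1.78 with equal medians and -1.76 with equal upper quartiles.

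Counts past 1.5-fold in the small lists moved as follows. With a pseudocount of 0.1 they were 2 for the other SLC16 genes, 2 for hexose entry and 3 for the partners. With a pseudocount of 5 they were 0 for SLC16, 1 for the partners, 1 for butyrate use, 0 for biotin and pantothenate and 2 for the crypt. With a mean of at least 5 FPKM they were 0 for SLC16 and 1 for lactate and pyruvate. With equal medians they were 2 for SLC16, 1 for the partners, 2 for hexose entry, 0 for biotin and pantothenate and 3 for butyrate use, and with equal upper quartiles again 2, 1, 2, 0 and 3. With an equal nuclear sum, where the added 1 stood for less than 1 FPKM, SLC16 had 3 and the partners 3. The cause of these moves was not tested.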
